A study of Mus musculus with 4 samples.

Results

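Globin-dominated barcodes were the 976 of 3569 deposited cell barcodes in which 4 adult haemoglobin genes together supplied over 50% of the unique molecular identifiers (UMIs, each standing for 1 captured RNA molecule). The 4 genes were Hba-a1 and Hba-a2, which encode the alpha chain of haemoglobin, and Hbb-bs and Hbb-bt, which encode the beta chain. The barcodes were selected on their globin content, so the globin values below are a description with no test, and every test concerns genes that the selection did not use. The library pooled from replicates 1 and 2 held 731 such barcodes among 2303 (31.7%, exact Clopper-Pearson 95% interval 29.8 to 33.7%). The replicate 3 library held 245 among 1266 (19.4%, interval 17.2 to 21.6%). These intervals, and all others below, cover counting error only. The libraries shared 1 barcode sequence, and it was not globin-dominated in both.

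Both droplet libraries were made from unsorted cells of the injured Achilles tendon of Hoxa11CreER;ROSA-LSL-TdTomato;Hif1a fl/fl mice, collected 7 days after burn/tenotomy, an injury that leads to heterotopic ossification. The labels do not say whether these mice carried the Cre allele in each case. All had received tamoxifen, followed by a 9-day washout before surgery, and the labels give neither their age nor their sex. The Cre is expressed from the limb patterning gene Hoxa11, so the Hif1a deletion is directed at limb mesenchyme and not at blood. No library of another genotype or time was analysed here, so the comparison below sets globin-dominated barcodes against all other barcodes of the same library. The 2 spatial sections (A1 and B1) came from 10-week-old wild-type C57BL/6 mice at the same time after the same injury.

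In mammals the red cell loses its nucleus late in its development and enters the blood as a reticulocyte, which still carries messenger RNA, mitochondria and ribosomes. These are degraded over its first days in the circulation, and globin messages are by far the most abundant RNA that it holds. Haem, the iron-bearing group of haemoglobin, is made in a chain of enzymatic steps that Alas2, the erythroid 5-aminolevulinate synthase, starts in the mitochondrion.

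The bases before the transcription start of the 4 globin genes and of Alas2 are shown because the 2 beta genes came apart among the barcodes, whereas the 2 alpha genes did not. Each line holds the 250 bases before the start in the RefSeq annotation of GRCm38.p6, and capitals mark 4 short motifs: GATAA, the core bound by GATA factors, CACCC, the core bound by Klf1, CCAAT, and the TATA-like ATATAA. Each was sought on both strands, and a match is a run of letters, not a shown binding site.
Hbb-bt: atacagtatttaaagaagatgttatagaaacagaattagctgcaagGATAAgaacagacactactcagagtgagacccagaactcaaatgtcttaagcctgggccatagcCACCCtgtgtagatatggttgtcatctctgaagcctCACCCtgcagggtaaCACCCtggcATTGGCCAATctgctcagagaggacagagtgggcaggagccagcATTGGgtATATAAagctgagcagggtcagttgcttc
Hbb-bs: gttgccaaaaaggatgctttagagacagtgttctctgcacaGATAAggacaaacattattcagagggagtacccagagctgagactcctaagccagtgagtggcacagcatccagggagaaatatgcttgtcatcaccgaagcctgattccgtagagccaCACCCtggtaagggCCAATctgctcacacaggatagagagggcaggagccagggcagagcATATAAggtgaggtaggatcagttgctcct
Hba-a1: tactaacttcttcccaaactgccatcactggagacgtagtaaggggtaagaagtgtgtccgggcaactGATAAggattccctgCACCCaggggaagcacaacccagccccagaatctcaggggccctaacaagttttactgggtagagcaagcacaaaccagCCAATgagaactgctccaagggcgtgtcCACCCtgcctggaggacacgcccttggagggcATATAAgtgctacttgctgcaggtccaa
Hba-a2: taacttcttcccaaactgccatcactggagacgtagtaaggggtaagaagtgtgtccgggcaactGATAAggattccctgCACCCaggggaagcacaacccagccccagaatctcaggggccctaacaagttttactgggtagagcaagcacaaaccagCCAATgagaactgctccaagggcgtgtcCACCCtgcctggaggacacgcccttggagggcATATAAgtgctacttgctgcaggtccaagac
Alas2: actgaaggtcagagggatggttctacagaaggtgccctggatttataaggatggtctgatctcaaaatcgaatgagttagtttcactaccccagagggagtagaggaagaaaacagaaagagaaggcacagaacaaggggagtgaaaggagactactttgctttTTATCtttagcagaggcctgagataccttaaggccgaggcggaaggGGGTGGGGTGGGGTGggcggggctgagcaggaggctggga
The Hbb-bt window is chr7:103813924-103814173 and that of Hbb-bs is chr7:103827929-103828178, both on the minus strand. The Hba-a1 window is chr11:32283422-32283671 and that of Hba-a2 is chr11:32296242-32296491, both on the plus strand, and the Alas2 window is chrX:150547167-150547416 on the plus strand. The GENCODE gene bounds of all 5 genes begin further upstream, inside these windows. All 4 globin windows held each of the 4 motifs, with ATATAA at -30 to -25 in Hbb-bs and at -29 to -24 in Hbb-bt, counted back from the start. Hbb-bt had 3 CACCC and 3 CCAAT matches (1 of its CCAAT matches abuts another on the opposite strand), and Hbb-bs had 1 of each. The Alas2 window held 1 GATAA and 3 CACCC matches and neither of the other motifs. Over 32851 RefSeq windows of the same length, 22.6% held GATAA, 52.0% CACCC, 33.9% CCAAT and 9.10% ATATAA, and 0.466% held all 4.

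How far the paralogs can be told apart limits what their separate counts mean. The Hba-a1 and Hba-a2 transcripts differed at 1 of 538 aligned bases, and the bases before their starts at none of 247, so reads from the aligned part mostly fit both and their split is uncertain. The Hbb-bs and Hbb-bt transcripts differed at 46 of 626 aligned bases, 37 of them among the 197 aligned bases at the 3' end from which these libraries are read. The bases before the starts of Hbb-bs and Hbb-bt differed at 65 of 243.

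The globin share fell into 2 well separated ranges. Of the barcodes outside the selection, 1550 of 1572 in the pooled library and 1017 of 1021 in replicate 3 had under 5% globin, which left 22 and 4 between 5% and 50%. The lowest selected barcodes had 56.4% and 58.8% globin in the pooled library and 70.1% and 70.3% in replicate 3. The highest outside it had 43.7% and 43.2% in the pooled library and 49.5% and 14.3% in replicate 3. Those 4 barcodes outside had between 1155 and 1915 genes, against 43, 55, 76 and 802 genes in the 4 just inside.

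**Figure D1:**
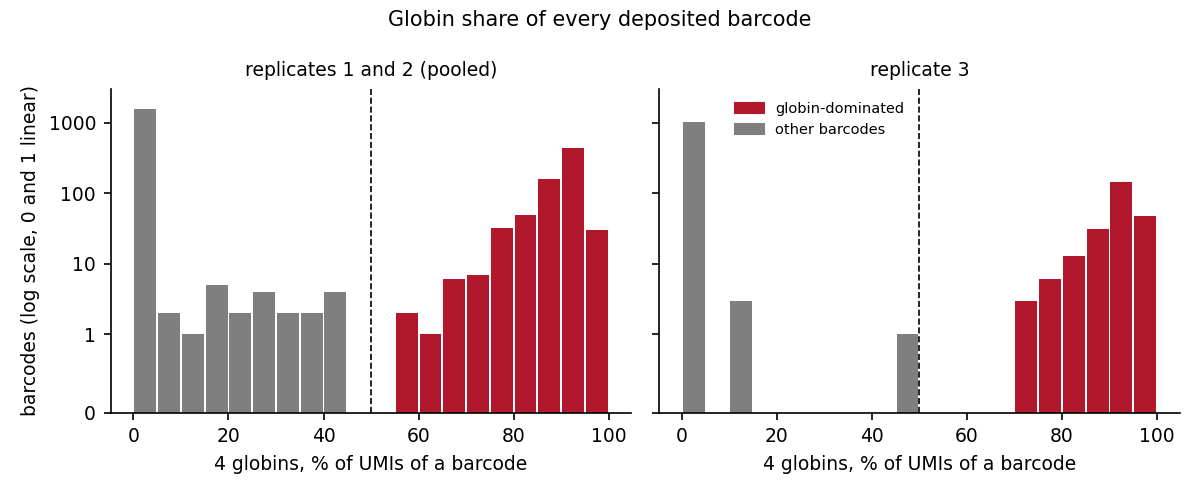
Number of barcodes (y axis, log scale) by globin share of their UMIs (x axis, percent, bins of 5 points) in each library. Red bars are globin-dominated barcodes, 731 in the pooled library and 245 in replicate 3, grey bars are the others, and the dashed line marks 50%.

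Globin-dominated barcodes were shallow and held few genes. Their UMIs ran from 502 to 10953 in the pooled library with a median of 1967, and from 515 to 14510 in replicate 3 with a median of 4868. They had a median of 54 and 76 genes, against 2850.5 and 3009 genes in the other barcodes. Globin supplied a median of 91.5% and 93.6% of their UMIs, and the median barcode had 182 and 278 non-globin UMIs left, against 10241.5 and 12109 in the other barcodes. A cut at 200 genes therefore removed 718 of the 731 and 237 of the 245. Globin-dominated barcodes made up 89.1% of all barcodes with under 200 genes in the pooled library and 77.7% in replicate 3. The remaining 88 and 68 low-gene barcodes were of another kind, with medians of 95.3% and 93.2% mitochondrial UMIs. With the mitochondrial maximum of 20% and the ribosomal minimum of 5% that the study used, 3 and 1 globin-dominated barcodes would have been kept, since 728 and 244 of them had under 5% ribosomal protein UMIs.

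All 4 globins were present at very high level, in nearly the same order in both libraries. Hbb-bs supplied 62.2% of the globin UMIs of the selected barcodes in the pooled library and 58.8% in replicate 3. Hba-a1 supplied 17.5% and 19.0%, and Hba-a2 13.1% and 13.9%. Hbb-bt supplied the least, 7.07% and 8.26%. Alpha-chain genes together made up 30.7% (Wilson 95% interval 30.6 to 30.8%) and 33.0% (32.9 to 33.1%). The alpha share of a single barcode ranged from 11.3 to 57.3% around a median of 30.5% in the pooled library, and from 8.37 to 55.8% around 32.8% in replicate 3.

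Within the beta pair, the share of Hbb-bt differed greatly between barcodes and moved with their depth. Hbb-bt made up 10.2% (interval 10.1 to 10.3%) of the summed beta-globin UMIs in the pooled library and 12.3% (12.3 to 12.4%) in replicate 3. Single barcodes ran from 0 to 25.9% in the pooled library with a median of 3.39%, and from 0 to 24.4% in replicate 3 with a median of 8.02%. The variance of this share over barcodes was 82.9 and 108.3 times that of counting alone. With the barcodes of each library divided into 4 depth groups of nearly equal size by total UMIs, Hbb-bt made up 1.64, 2.56, 5.92 and 15.0% of beta-globin UMIs from the shallowest to the deepest group of the pooled library. In replicate 3 the depth groups had 3.01, 6.00, 10.3 and 16.9%. Spearman's rho between UMIs and the Hbb-bt share was 0.83 over 731 barcodes and 0.85 over 245, where the Hbb-bt UMIs are themselves part of the depth.

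The alpha pair showed no such gradient. Hba-a2 made up 42.9, 42.7, 42.6 and 43.0% of alpha-globin UMIs in the 4 depth groups of the pooled library, and 41.6, 41.3, 42.7 and 42.4% in replicate 3. Its variance over barcodes was 2.59 and 4.16 times that of counting. Since these transcripts are nearly identical, this steady share describes how reads were divided between the 2 genes as much as their levels.

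**Figure D2:**
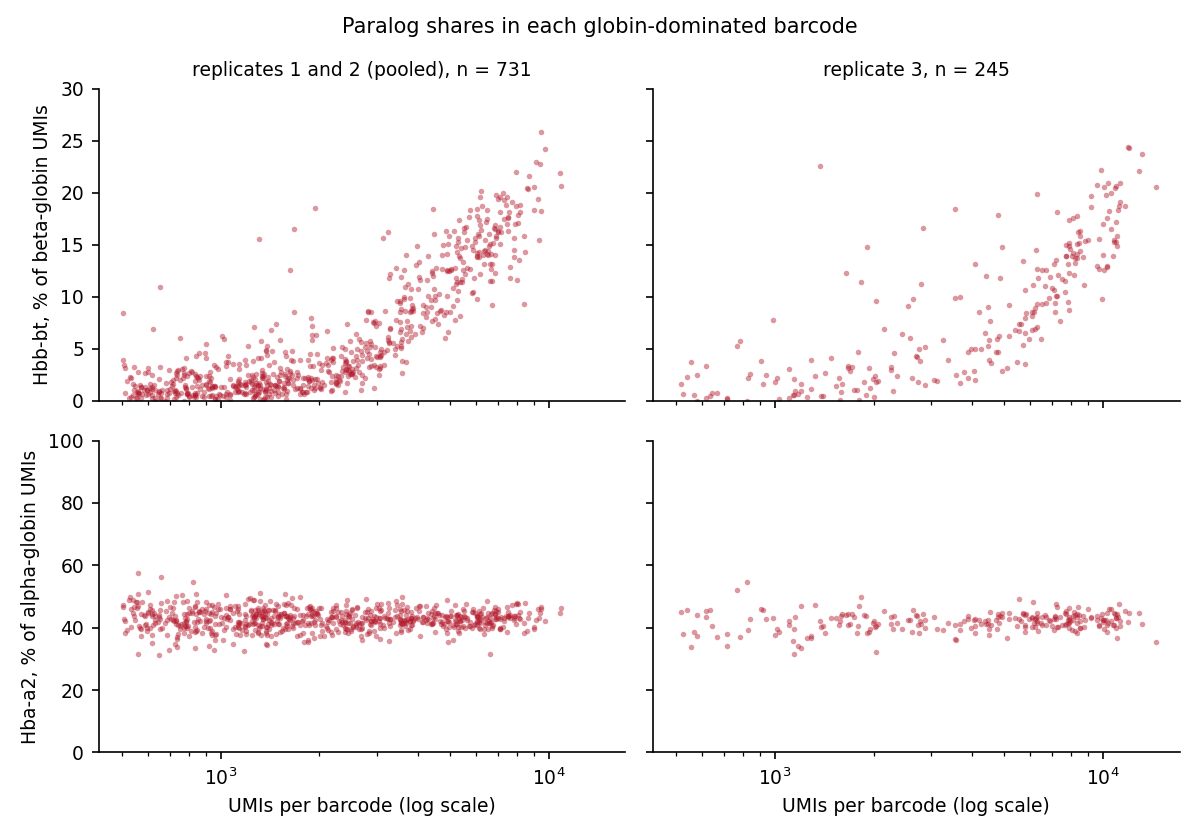
Each point is 1 globin-dominated barcode (731 pooled, 245 replicate 3), with its UMIs on the x axis (log scale) and, on the y axes, the percent of beta-globin UMIs from Hbb-bt (upper row) and of alpha-globin UMIs from Hba-a2 (lower row). The Hbb-bt share climbs from near 0 to as much as 25.9% with depth, and the Hba-a2 share stays around 42.9 and 42.2%, its medians.

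Little globin RNA was found elsewhere. The selected barcodes held 1903943 globin UMIs in the pooled library and 1190680 in replicate 3, against 43805 and 19315 in the other barcodes. Of the globin UMIs in other barcodes, 94.0% and 95.4% sat in the 22 and 4 barcodes between 5% and 50% globin. The remaining 1550 and 1017 barcodes held 2609 and 891 globin UMIs, 0.00892% and 0.00405% of their UMIs, and 48.8% and 47.2% of all barcodes outside the selection had at least 1. In those below 5% globin, Hbb-bt was 4.39% (interval 3.56 to 5.40%) of beta-globin UMIs in the pooled library and 10.9% (8.78 to 13.6%) in replicate 3.

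Once globin was set aside, 1 gene dominated what was left. Gm42418 supplied 47.8% and 43.8% of the non-globin UMIs of globin-dominated barcodes in the pooled library and replicate 3, against 3.49% and 4.23% in the other barcodes. Gm42418 (chr17:39846958-39848788, plus strand, annotated as a lincRNA in GENCODE vM21 on GRCm38) overlaps Rn18s-rs5, which RefSeq lists as an 18S ribosomal RNA pseudogene, over 68% of its length. AY036118 lies wholly within Gm42418 on the opposite strand and supplied 1.58% and 1.89%, against 0.0448% and 0.0557%. Lars2, a mitochondrial leucyl-tRNA synthetase, supplied 2.22% and 2.13%, against 0.109% and 0.131%. Because the first pair overlap each other and ribosomal sequence, their counts are uncertain as gene levels. Whether the Lars2 reads stem from its message was not tested. Also abundant were Ftl1, the ferritin light chain, Tpt1, Alas2, Oaz1, an inhibitor of polyamine synthesis, and Ubb, a polyubiquitin gene. Each supplied over 1% of the non-globin UMIs in both libraries.

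The non-globin UMIs of the selected and the other barcodes were summed per library and compared gene by gene in edgeR, where each library formed a block. Values below are UMIs per 1000000 non-globin UMIs (CPM). The member sums held 182612 and 86453 non-globin UMIs and the sums of the others 29406042 and 22083028. Of 14021 genes tested, 291 were higher (2.08%) and 280 lower (2.00%) at a Benjamini-Hochberg adjusted p under 0.05. Among the 367 tested genes with at least 10 UMIs in each member sum, 215 were higher and 47 lower, and 7317 of the tested genes had no UMI in either member sum. The outcome turned on the scaling. The TMM factors raised the log2 fold changes by a median of 1.68 over those from the non-globin totals alone, and with totals alone 180 genes were higher (1.28%) and 2647 lower (18.9%). The 180 higher genes were all among the 291, and the 280 lower genes were all among the 2647, but 37 of the 291 had a log2 fold change below 0 on totals alone. A gene is therefore called higher or lower in the following only where both scalings gave that call, and fold changes are the TMM ones unless stated otherwise. The fit had 1 residual degree of freedom and took its spread from the trend over genes, so the p-values describe these 2 libraries, in which both kinds of barcode came from the same mice.

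The lists are described by their counts and medians. In the lists below, counts of genes higher under both scalings stand beside 1.28% of all genes and counts of genes lower beside 2.00%. Both shares are over all genes tested, 7317 of which had no UMI in either member sum. Of the genes named below, Slc4a1, Tspo2, Trim10, Hemgn, Slc38a5, Apol11b, Hbq1a, Hbq1b and Hbb-bh1 were at or near 0 in the other barcodes. They entered the test only through the globin-dominated barcodes, so their calls are a description only. Among the 367 with at least 10 UMIs in each, 58.6% were higher with TMM. On that measure 3 of 3 haem synthesis genes were higher, 5 of 5 of iron handling and 8 of 9 of membrane and skeleton. It was 8 of 9 for gas exchange and oxidant defence, 16 of 17 for ubiquitin and 10 of 12 for other late genes. With TMM, 12 of 12 mitochondrial genes were higher and 14 of 72 ribosomal protein genes. Under both scalings it was 0 and 2 over all tested genes of these lists. Bsg, counted with TMM in membrane and skeleton, had a log2 fold change of -0.58 on totals alone. The median log2 fold change was 3.59 over the haem synthesis list, 1.14 over iron handling, 5.17 over membrane and skeleton, 5.06 over gas exchange and oxidant defence, 4.71 over ubiquitin and organelle removal and 3.89 over other late red cell genes, beside -7.02 over all genes tested. The median over all genes reflects the many genes with no UMI in the member sums. With a sum of 0 set to 3 UMIs and ratios of CPM, the medians of these lists were 1.87, 1.00, 3.54, 3.40, 3.06 and 2.85, beside 0.44 over all genes. This floor lifts scarce lists, and the platelet markers, with 3 of 4 tested genes at 0, had 1.71 and the regulators 1.15, above iron handling. On that scale the medians were -3.24 over mesenchymal markers, -3.46 over keratinocyte markers and 1.82 over interferon-response genes.

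Of the 8 enzymes of haem synthesis, 4 were higher and 4 did not pass the test, beside 1.28% of all genes higher on totals alone. Together the 8 supplied 2.14% (Wilson interval 2.07 to 2.20%) of the non-globin UMIs of globin-dominated barcodes in the pooled library and 2.24% (2.15 to 2.34%) in replicate 3, against 0.0123% and 0.0117% in the others. Alas2 carried nearly all of it. Alas2 had 18619 and 19005 CPM in globin-dominated barcodes, against 3.60 and 1.36 CPM in the others, a ratio of 5165 and 13989 (log2 fold change 14.61 ± 0.71 SE, edgeR adjusted p = 3.57e-91). Fech, which inserts iron into the porphyrin ring as the last step, had 2618 and 2765 CPM, against 27.6 and 28.7. Both genes were well apart between the groups in both libraries. Urod, an enzyme of the middle of the pathway, had 60.2 and 162 CPM, against 23.2 and 20.1.

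Of 16 iron-handling genes tested, 6 were higher and none lower. Slc25a37, mitoferrin 1, which carries iron into the mitochondrion, had 3538 and 3146 CPM in globin-dominated barcodes, against 11.9 and 11.1 CPM in the others (log2 fold change 9.84 ± 0.41 SE). Ftl1 had 19802 and 20682 CPM, against 2019 and 2491. The ferritin heavy chain Fth1 differed less, with 5892 and 6836 CPM, against 3506 and 3199. Slc48a1, a haem transporter, had 734 and 694 CPM, against 34.0 and 32.9, and Glrx5, of iron-sulphur cluster assembly, 657 and 972 CPM, against 92.4 and 88.6. The transferrin receptor Tfrc, which takes up iron in haemoglobin-making precursors, did not pass the test, with 1 and 5 UMIs (5.48 and 57.8 CPM), against 18.3 and 15.1 CPM.

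Of 21 membrane and skeleton genes tested, 10 were higher under both scalings and none lower. Slc4a1, the band 3 anion exchanger of the red cell surface, had 45 and 41 UMIs in globin-dominated barcodes (246 and 474 CPM), against 2 and 0 UMIs in the other barcodes. Tspo2, an erythroid mitochondrial-translocator relative, had 46 and 48 UMIs, against 0 and 0, so its level on totals alone was at least 2469-fold and 4087-fold higher with a sum of 0 set to 3 UMIs per library. The most abundant member of the list was Epb41, protein 4.1 of the membrane skeleton, with 3828 and 3297 CPM, against 26.9 and 21.5. Slc4a1, although close to absent elsewhere, was found in only 30 and 16 of the selected barcodes.

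Of 15 genes of gas exchange and oxidant defence tested, 8 were higher under both scalings and 1, Txn1, lower. Bpgm, which makes the 2,3-bisphosphoglycerate that tunes the oxygen affinity of haemoglobin, had 12031 and 12527 CPM in globin-dominated barcodes, against 16.8 and 16.3 CPM in the others, a ratio of 716 and 771 (log2 fold change 11.19 ± 0.56 SE). Carbonic anhydrase 2, Car2, had 734 and 1689 CPM, against 5.85 and 1.72. The peroxidases Gpx1 and Prdx2 had 4414 and 6570 CPM and 3110 and 4627 CPM, against 431 and 412 CPM and 334 and 330 CPM. Blvrb, biliverdin reductase B, had 1068 and 1666 CPM, against 69.8 and 75.6, and Aldh1a1 367 and 324 CPM, against 6.94 and 7.79. Thioredoxin, Txn1, had 71.2 and 46.3 CPM, against 546 and 527 (log2 fold change -1.40 ± 0.44 SE). With DESeq2 no gene of this list was lower.

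Genes of ubiquitin conjugation and organelle removal were the list with the most calls: 17 of 23 tested were higher under both scalings and none lower. The list supplied 5.31% (5.21 to 5.41%) and 5.86% (5.71 to 6.02%) of the non-globin UMIs of globin-dominated barcodes, against 0.448% in the others of both libraries. The ubiquitin ligase Mkrn1 had 10394 and 11752 CPM, against 57.7 and 49.0. The conjugating enzyme Ube2l6 had 7048 and 5668 CPM, against 11.0 and 7.47 (log2 fold change 11.11 ± 0.49 SE). March2, a membrane-bound ubiquitin ligase, had 2689 and 2649 CPM, against 46.5 and 44.0, and Trim10 had 31 and 39 UMIs, against 0 and 2. Ubb had 15120 and 19490 CPM, against 2050 and 2076. Bnip3l, a receptor by which reticulocytes remove their mitochondria, had 5071 and 4893 CPM, against 118 and 115.

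Of 23 other genes known from late red cell development, 14 were higher under both scalings and none lower. Isg20, a nuclease, had 3543 and 3956 CPM in globin-dominated barcodes, against 11.9 and 9.65, and Tent5c, a poly(A) polymerase, 5000 and 4742 CPM, against 23.3 and 25.6. Hemgn and Slc38a5 passed on few molecules, 6 and 4 UMIs against 4 and 1 for Hemgn and 11 and 3 against 5 and 0 for Slc38a5. Outside these lists, Apol11b was among the 10 tested genes that differed most, with 471 and 567 CPM, against 0.170 and 0.272.

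Of 5 further globins tested, 3 were higher, and these 3 entered the test only through the globin-dominated barcodes. Hbq1a and Hbq1b, theta globins of the alpha cluster, had 117 and 45 UMIs and 27 and 18 UMIs in globin-dominated barcodes, against 5 and 0 UMIs and 0 and 0 UMIs in the others. Hbb-bh1, an embryonic beta-like globin, had 30 and 8 UMIs (164 and 92.5 CPM), against 3 and 0. Hbb-bh1 is a relative of the far more abundant adult beta genes, and the assignment of its reads was not tested.

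The regulators of red cell formation were scarce in both kinds of barcode, at 0.0279% and 0.0544% of the non-globin UMIs in globin-dominated barcodes, against 0.0303% and 0.0283% in the others. Gata1 had no UMI in the globin-dominated barcodes of either library, and Klf1 had 0 and 1. Of 13 regulators tested 1, Lmo2, was higher, with 153 and 220 CPM, against 19.1 and 15.8. Tal1, Epor and Car1 had no UMI, Nfe2 0 and 5, and the division marker Mki67 6 and 1 (32.9 and 11.6 CPM, against 59.3 and 50.4, not past the test). Of 17 division genes tested 1 was higher, the ubiquitin conjugating enzyme Ube2c, with 800 and 1006 CPM, against 34.7 and 26.4, and 1 lower, the histone gene H2afz, with 87.6 and 46.3 CPM, against 691 and 612. With DESeq2 no division gene was lower. The label was checked on red cell genes that the selection did not use but that were chosen with earlier results of these data known, so they are no independent evidence: Alas2, Slc4a1, Bpgm, Fech, Bnip3l, Mkrn1, Slc25a37, Tent5c, Isg20 and Ube2l6 were all higher. Of 7 genes of nucleated precursors, Hemgn was higher on few UMIs, Tfrc and Mki67 did not pass the test, and Klf1, Gata1, Car1 and Epor were too low to be tested.

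Of 10 interferon-response genes tested, 3 were higher and none lower. Rsad2 had 947 and 995 CPM in globin-dominated barcodes, against 8.03 and 7.02 CPM in the others (log2 fold change 8.68 ± 0.34 SE). Isg15, a ubiquitin-like protein, had 1336 and 1677 CPM, against 50.8 and 22.0, and Irf7 98.6 and 104 CPM, against 20.8 and 8.47. The other 7 did not pass the test.

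**Figure D3:**
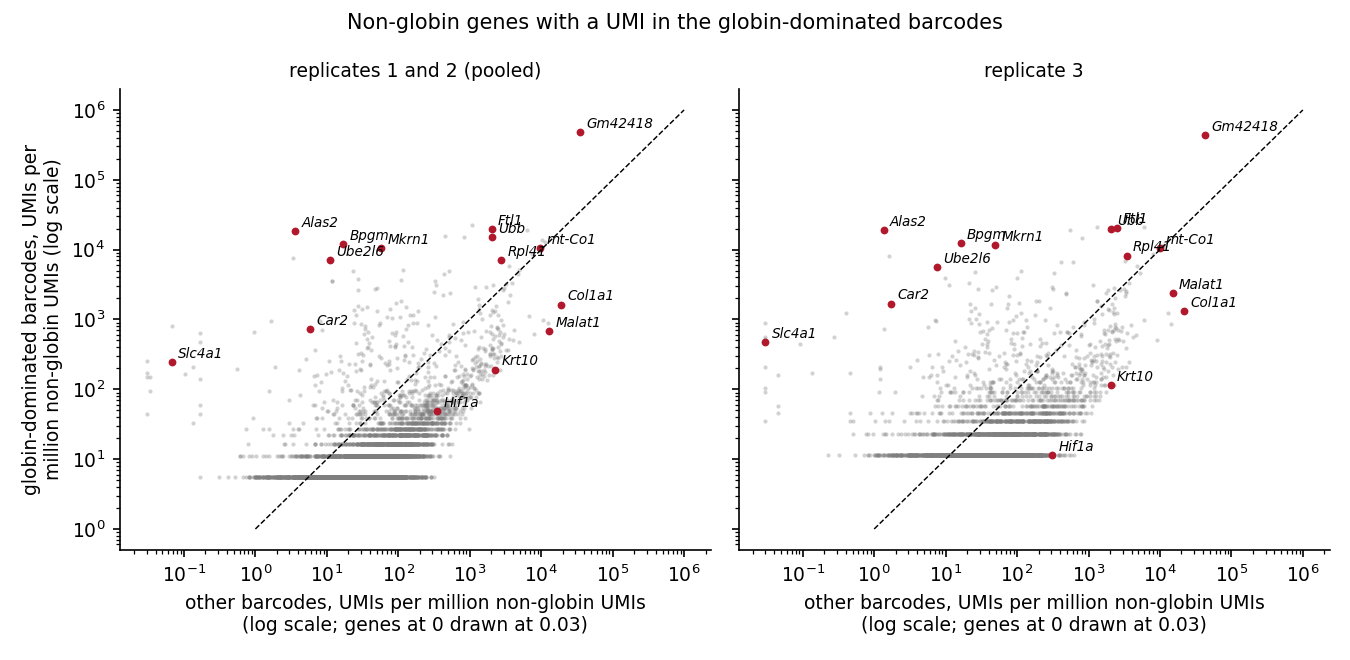
Each point is a tested gene with a UMI in the globin-dominated barcodes of that library, by its level there (y axis) and in the other barcodes (x axis), both in CPM on log scales. The dashed line marks equal levels. Red points are genes named in the text: the red cell genes, such as Alas2 at 18619 and 19005 against 3.60 and 1.36, lie far above the line, and Malat1, Col1a1 and Krt10 below it.

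Mitochondrial and ribosomal messages set the limits of the scaling. The 13 genes of the mitochondrial genome supplied 6.25% (6.14 to 6.36%) and 5.72% (5.56 to 5.87%) of the non-globin UMIs of globin-dominated barcodes, against 5.44% and 5.70% in the others. With TMM 12 of the 13 were called higher and on totals alone none, so no direction is given. Ribosomal protein genes supplied 5.76% and 6.62%, against 14.7% and 14.5%, and their direction likewise depended on the scaling: 14 of 83 were higher and 12 lower with TMM, and 2 higher and 70 lower on totals alone. Within the list the genes differed. Rpl41 was higher under both scalings, with 7015 and 8224 CPM, against 2749 and 3406, whereas Rpl18 was lower under both, with 137 and 150 CPM, against 1772 and 1584. With DESeq2 no ribosomal protein gene was lower.

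Of 7 nuclear long non-coding RNAs tested beside Gm42418, 4 were lower in edgeR and none with DESeq2. With Gm42418 left out, since it overlaps ribosomal sequence, the list supplied 0.0800% (0.0680 to 0.0940%) and 0.261% (0.230 to 0.298%) of the non-globin UMIs of globin-dominated barcodes, against 1.58% and 1.76% in the others. With Gm42418 the shares were 47.9% and 44.1%, against 5.07% and 5.99%. Malat1, which is retained in the nucleus, had 674 and 2383 CPM, against 12991 and 14986 (log2 fold change -1.79 ± 0.35 SE). In replicate 3, 164 of its 206 UMIs lay in the 8 barcodes with 200 or more genes, 104 of them in 1 barcode. Neat1, of nuclear paraspeckles, had 65.7 and 127 CPM, against 1382 and 1291. Xist had 3 and 0 UMIs, against 16568 and 2, so its call rested on the pooled library.

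No gene of the 9 lists of other cell types was higher. The lower calls below are those of edgeR under both scalings, and with DESeq2 the only gene of these lists called lower was 1 mesenchymal marker. The 12 mesenchymal markers supplied 0.538% of the non-globin UMIs of globin-dominated barcodes in both libraries, against 6.18% and 7.13% in the others, with 9 of 12 lower. Col1a1, a chain of type I collagen, had 1637 and 1319 CPM, against 18858 and 21755 (log2 fold change -2.10 ± 0.37 SE). Keratinocyte markers supplied 0.0476% and 0.0324%, against 0.564% and 0.444%, with 5 of 9 lower, among them Krt10 with 192 and 116 CPM, against 2273 and 2040. Macrophage markers supplied 0.0422% and 0.0416%, against 0.287% and 0.263%, with Lyz2 alone lower. Their most counted gene, Cd74, had 159 and 220 CPM, against 1054 and 902, and passed on totals alone but not with TMM. Smooth muscle and pericyte markers supplied 0.0192% and 0.0231%, against 0.244% and 0.203%, with 3 of 7 lower, among them Acta2 with 93.1 and 127 CPM, against 928 and 834.

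The scarcer lists held too few molecules for calls. Neutrophil markers had 25 and 6 UMIs, led by S100a8 with 9 and 2. Endothelial markers had 6 and 3, among them Pecam1 with 1 in each library, and lymphocyte markers 5 and 3, with Igkc at 0 and 3. Platelet markers had 11 and 2 UMIs, all of them Pf4, which macrophages express as well, and the defining platelet genes, such as Ppbp, were at 0. Skeletal muscle markers had 35 and 10 UMIs, led by Acta1 with 14 and 4 (76.7 and 46.3 CPM, against 155 and 66.8). On totals alone, the share in globin-dominated barcodes was between 0.0729 and 0.609 times that in the others over the 9 lists. With the TMM factors the skeletal muscle ratio was 1.67 and 1.62 and the platelet ratio 1.33 in the pooled library and 0.338 in replicate 3, so no direction is given for these lists, and the other 7 stayed between 0.194 and 0.551. Hif1a itself, the gene floxed in these mice, had 9 and 1 UMIs (49.3 and 11.6 CPM), against 348 and 309 CPM, and passed on totals alone but not with TMM.

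**Figure D4:**
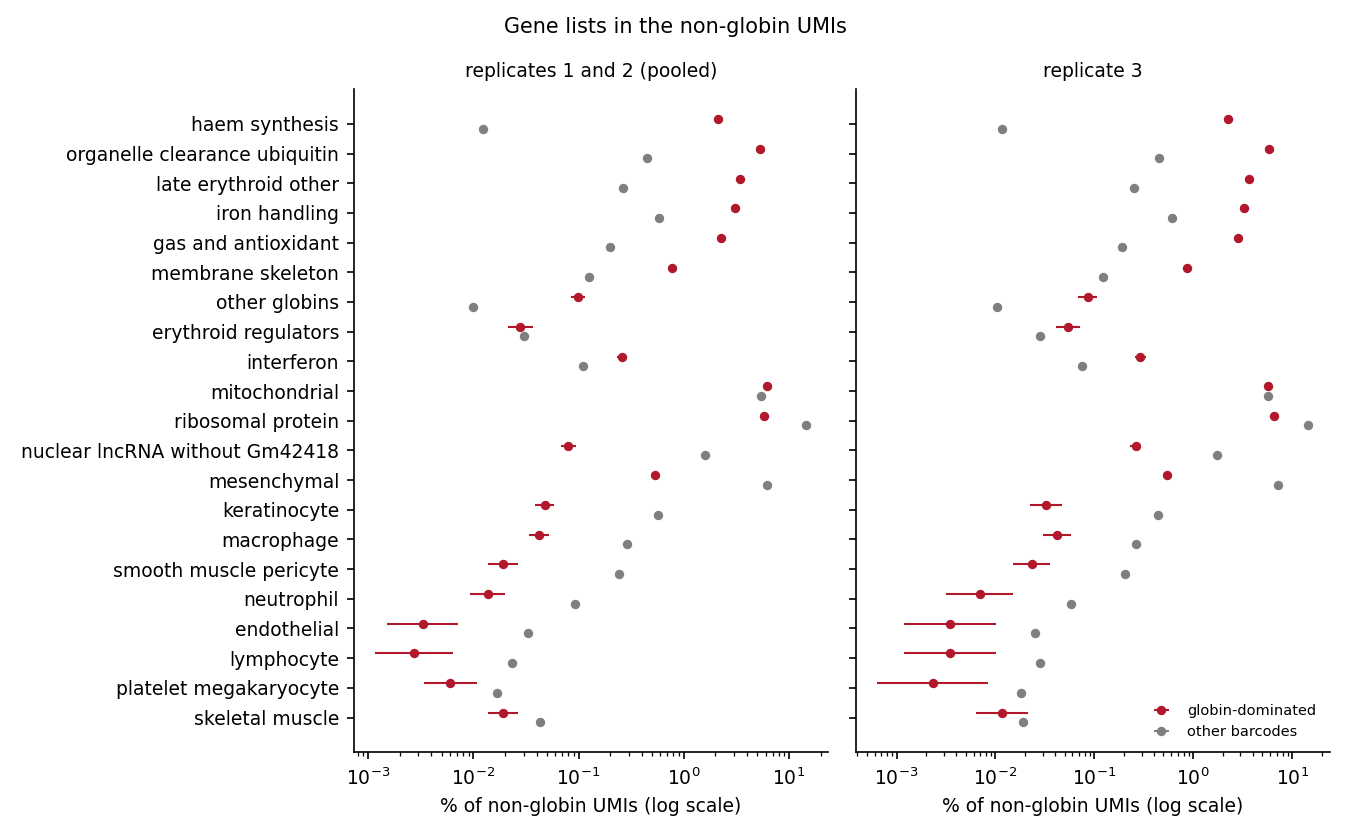
Share of the non-globin UMIs (x axis, percent, log scale) taken by each gene list in globin-dominated (red) and other (grey) barcodes, with Wilson 95% intervals for counting error. Haem synthesis stands at 2.14% and 2.24% against 0.0123% and 0.0117%, mitochondrial genes lie close together, and the 9 lists of other cell types lie lower on totals alone, as drawn.

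Among the lower genes, 15 of 280 had no UMI in either member sum and entered the test only through the other barcodes. The rule for naming genes gave 10 of them: Eprs, Lima1, Basp1, Psmc3, Bicc1, Crispld2, Trps1, Mmp23, Ptgfrn and Gpx7. Their fitted fold changes depend on the prior count and are not given. Eprs, a tRNA synthetase for glutamate and proline, had 0 UMIs against 6339 and 4409. With 3 UMIs set for a sum of 0 it was at least 3.53-fold and 2.16-fold lower with the TMM factors, and 13.1-fold and 5.75-fold on totals alone. For Gpx7 the bounds were 1.90-fold and 1.29-fold with the TMM factors. Of 16 immediate-early and heat shock genes, whose messages climb during tissue dissociation, 9 were lower under both scalings and none with DESeq2. Fos had 214 and 208 CPM in globin-dominated barcodes, against 2015 and 2100 CPM in the others, and Atf3 21.9 and 23.1 CPM, against 477 and 480.

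The globin-dominated barcodes were not uniform, and several red cell genes took a larger share of the non-globin RNA in deeper barcodes. The depth groups were drawn after the values were seen, so this is a description with no test. Mkrn1 supplied 0.0398, 0.219, 0.456 and 1.77% of the non-globin UMIs from the shallowest to the deepest group of the pooled library, and 0.171, 0.381, 0.914 and 1.79% in replicate 3. Bpgm supplied 0.179, 0.257, 0.629 and 1.97%, and 0.158, 0.583, 0.855 and 1.93%. Gpx1 was concentrated in the deepest group, with 0.850% and 1.27%, against 0.00995% and 0.0366% in the shallowest. Alas2 levelled off, with 0.503, 1.23, 2.01 and 2.27%, and 0.548, 1.93, 2.26 and 1.95%. Mkrn1, Bpgm, Gpx1 and Alas2 took their lowest share in the shallowest group of both libraries. Other red cell genes were flatter. Slc25a37 supplied 0.328, 0.223, 0.318 and 0.414% in the pooled library, and 0.219, 0.187, 0.324 and 0.370% in replicate 3. Epb41 supplied 0.299% and 0.256% in the shallowest group, against 0.458% and 0.331% in the deepest.

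Gm42418, Tpt1 and the mesenchymal markers did not follow the gradient of Mkrn1 and Bpgm. Gm42418 supplied 49.7, 50.8, 53.3 and 44.0% of the non-globin UMIs in the depth groups of the pooled library, and 50.4, 48.0, 47.8 and 38.8% in replicate 3. Tpt1 had 1.59% and 1.74% in the deepest group, against 2.28% and 3.29% in the shallowest. The mesenchymal markers supplied 1.09, 0.923, 0.551 and 0.301%, and 1.18, 0.972, 0.399 and 0.348%. Per barcode they differed less, 1.51 UMIs in the deepest and 1.20 UMIs in the shallowest group of the pooled library and 2.33 and 1.56 UMIs in replicate 3, while the haem synthesis genes had 13.2 and 0.661 UMIs and 16.3 and 0.823 UMIs. Mitochondrial UMIs per barcode were 15.6 and 13.4 in those groups of the pooled library and 22.3 and 10.7 in replicate 3. The part of free RNA in these values was not tested.

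**Figure D5:**
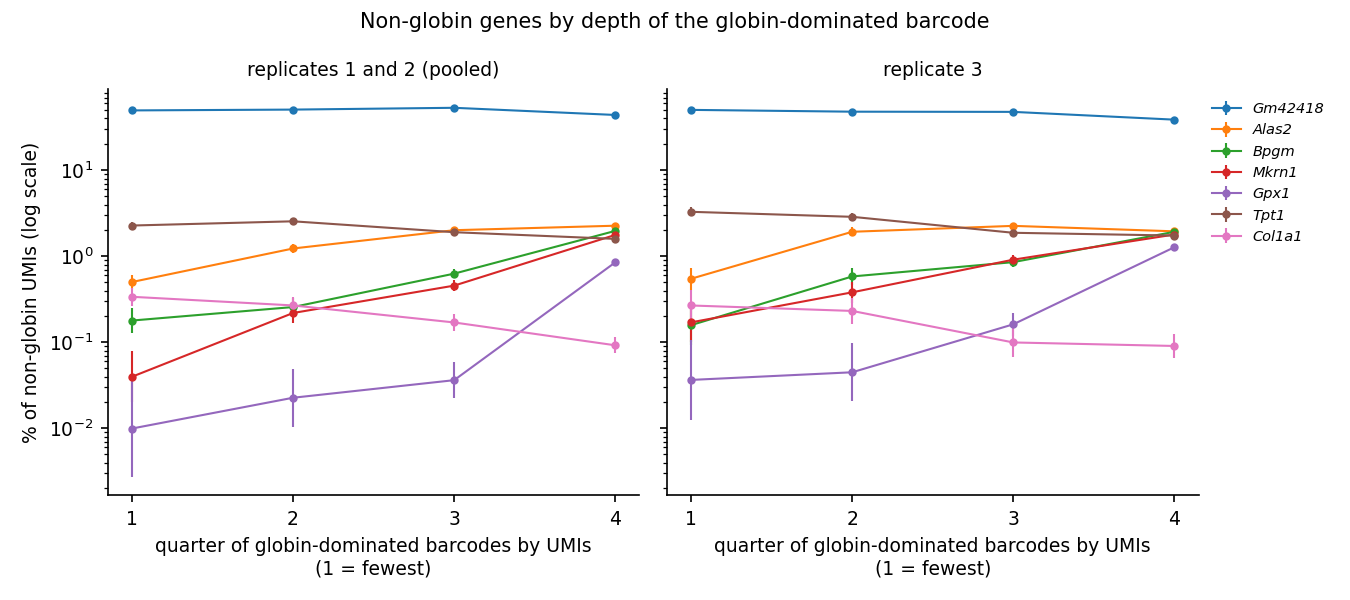
Share of the non-globin UMIs (y axis, percent, log scale) taken by 7 genes in the 4 depth groups of globin-dominated barcodes ordered by UMIs (x axis, 1 fewest), with Wilson 95% intervals. Mkrn1, Bpgm and Gpx1 are highest in the deepest group, Col1a1 lowest there, and Gm42418 stays between 38.8 and 53.3%.

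At an equal depth the barcodes still differed from the rest. Each barcode was thinned to 100 non-globin UMIs, which left out 137 and 24 globin-dominated barcodes and none of the others. Alas2 was then seen in 72.9% (Wilson interval 69.2 to 76.3%) of 594 and 75.1% (69.0 to 80.4%) of 221 globin-dominated barcodes. At that depth it was seen in 0 of 1572 and 0 of 1021 other barcodes, which allows shares with a UMI of up to 0.191% and 0.294% at 100 UMIs, not shares of cells that hold the RNA. Unthinned, the shares were 74.8% and 83.3%, against 1.27% and 0.490%. Bpgm was seen in 41.6% and 50.7%, against 0% and 0.0979%, and Mkrn1 in 34.5% and 43.0%, against 0.891% and 0.784%. Malat1 was seen in 7.74% and 8.60%, against 54.4% and 54.7%, and mt-Co1 in 48.8% and 51.6%, against 52.9% and 53.4%.

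A few deep barcodes carried much of the rarer red cell RNA. The 13 globin-dominated barcodes with 200 or more genes in the pooled library and the 8 in replicate 3 held 47.8% and 71.2% of all Car2 UMIs of the selected barcodes and 41.8% and 53.2% of Gpx1, but 6.06% and 8.16% of Alas2. Alas2 and Bpgm were found in all 13 and all 8. Messages of other cells were found there as well. Cd74, an antigen-presentation gene, reached 12 UMIs in 1 deep barcode of the pooled library and 18 in 1 of replicate 3. Doublets were not called.

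In the wild-type sections globin was a small part of the RNA, and no spot was dominated by it. The probe set had no entry for Hba-a1, so 3 of the 4 globins were read. Hbb-bs had 158 UMIs in section B1 and 130 in section A1, Hba-a2 170 and 89, and Hbb-bt 41 and 28. Together they were 160 CPM (exact Poisson 95% interval 144 to 177) of the 2308754 UMIs of B1 and 109 CPM (96.1 to 124) of the 2259744 UMIs of A1. The highest globin share of any of the 3195 and 3555 spots was 3.10% and 5.36%. At least 1 globin UMI was found in 8.45% and 5.34% of spots. Alas2 had 9 UMIs in each section, and Slc4a1 had 10 and 5. Other genes of the red cell lists had about as many UMIs as single globins. There were 122 and 140 for Bpgm, 136 and 124 for Mkrn1, 109 and 85 for Fech and 62 and 94 for Ube2l6. These genes are not confined to globin-dominated barcodes, so their UMIs need not be red cell RNA. In the pooled droplet library, Mkrn1 had a UMI in 754 of the 1572 other barcodes and Fech in 460. Spearman's rho between Hba-a2 and Hbb-bs over spots was 0.07 in B1 and 0.06 in A1, where 12 and 7 spots held both, too few molecules for a relation.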

How the data were processed

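Single-cell libraries were deposited as counts: the authors' matrices hold whole UMI counts per gene and barcode, made with Cell Ranger 5.0.1 against mm10, and the sections as UMI counts per spot from Space Ranger 2.0.1, a probe-based assay. The deposited files contain 3569 barcodes, which were all used, with no gene minimum. Total depth was 31536402 and 23379476 UMIs per library. The members and the gene lists were chosen with earlier results of these data known.

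The 4 globin genes were removed from counts and library sizes. UMIs were summed per library over globin-dominated and other barcodes and fitted with edgeR 4.0.16 in R 4.3.3 (quasi-likelihood, TMM, filterByExpr, library as block, Benjamini-Hochberg threshold 0.05). DESeq2 1.42.0, totals without TMM, no filter, no block, other globin thresholds and other reference barcodes were alternatives. Leaving out Gm42418, AY036118 and Lars2 was added after seeing the data. Shares have Wilson intervals, and CPM exact Poisson intervals; a count of 0 was taken as up to 3 counts. Doublets were not removed. The 2 libraries are 1 pool of 2 replicates and 1 further replicate.

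Named genes were, past the threshold and in the same direction in both libraries, per red cell list the 4 with the largest fold change each way and the 10 highest (at least 10 UMIs in each member sum) and 10 lowest (at least 100 UMIs in the others) of all genes; then, whatever their value, the most counted gene of each other cell type, and Slc4a1, Alas2, Gata1, Klf1, Tfrc, Hif1a, Malat1, Neat1 and Xist. Some genes that this rule names are not reported here. Other genes were named after their values were seen. Scripts were tested on simulated data. Promoters came from RefSeq, and 5 of 5 genes sought were matched.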

Additional observations from a re-analysis of the deposited data

Results flagged for a closer look

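Globin signal was present in the spatial sections, which the comparison of barcodes did not use. Section B1 held 369 UMIs and section A1 247 UMIs of Hba-a2, Hbb-bs and Hbb-bt, above the 3 counts that a count of 0 allows. The sections come from wild-type mice and from a probe assay on fixed tissue, so these values cannot be set against the droplet libraries.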

How the results depend on the processing

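The scaling decided most of the calls. The counts of 291 higher and 280 lower genes became 180 and 2647 on totals alone and 378 and 4 with DESeq2 (7225 genes with an adjusted p), so the higher share of all calls was 51.0%, 6.37% and 99.0%. Lower genes numbered 131 without a filter and 156 with only barcodes under 200 genes as members. Against other barcodes with under 200 genes, 157 were higher and 60 lower of 433 tested. Without the replicate block, 349 were higher and 309 lower, within 1.5 times of the main counts. Leaving out Gm42418, AY036118 and Lars2 gave 286 and 257. No count could be had without 1 library, since no residual degree of freedom remained.

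Among named genes, Xist had a log2 fold change of 0.75 with DESeq2, and Pf4 -1.74 on totals alone. The globin-dominated share, 25.5% as the mean of the libraries, ran from 19.4 to 31.7% with either library left out, and was 83.4% among barcodes with under 200 genes and 0.850% among the rest. The haem synthesis share, 2.19%, ran from 2.14 to 2.24% over the libraries, and was 2.00% above a globin threshold of 30%, 2.54% above 90% and 1.79% as a median over barcodes. The cause of these shifts was not tested. The low depth of the members limits rare genes: 367 genes reached 10 UMIs in both member sums.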
